A study of Mus musculus with 2 samples.

Results

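The clustered protocadherins are cell surface proteins of the cadherin superfamily, encoded by neighbouring alpha, beta and gamma gene clusters. The members were taken from the deposited expression table as all protein-coding rows whose gene symbol begins with Pcdha, Pcdhb or Pcdhg, the C-type symbols included, and ends in a number. This gave 57 genes out of 45777 rows, of which 14 belonged to the alpha cluster, 22 to the beta cluster and 21 to the gamma cluster. Their expression was compared between 1 teratoma library from E14 cells and 1 teratoma library from E14-Sox2TA/WT cells, so that no difference below has a replicate check and no p-value was computed. E14 is a mouse ESC line with wild-type Sox2. The E14-Sox2TA/WT cells are E14 cells in which Cas9 editing changed threonine 258 of Sox2 to alanine on 1 allele, and they were grown from single sorted cells and selected by sequencing. The libraries are called the E14 library and the edited library below. How many edited clones were inoculated is not given in the sources used here. Both lines were inoculated subcutaneously into BALB/c-nu mice, 3 mice per group, and the teratomas were harvested after 14 days. Host mouse cells in a teratoma give reads that the gene counts do not separate from those of the inoculated cells. Whether each library came from 1 teratoma or a pool is likewise not given.

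The files hold 50529171 reads on genes for the E14 library and 49030281 for the edited library. The libraries differed in more than the edited allele. The Y-linked genes Ddx3y, Eif2s3y, Kdm5d and Uty had 5453 reads in the E14 library against 0 in the edited library, and mitochondrial genes held 5.17% and 9.70% of the TPM. Sox2 itself had a TPM of 246 and 130, and its 2 alleles are not separated in the table. The labels name the tissue as teratoma, whereas their extraction text names an ESC line. Markers of differentiated cells were found in both libraries, with a summed TPM of 3719 and 613 for 15 neuronal genes and of 507 and 1334 for 7 epithelial genes. The part of any of these differences in the results below was not tested.

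As background, clustered protocadherins bind the same isoform on the facing cell and are best known in neurons. There, each cell uses a small set of isoforms, and the combination lets a neuron tell its own branches from those of its neighbours. In the alpha and gamma clusters, every member has its own promoter and a large first exon, the variable exon, which encodes the extracellular part and is spliced to constant exons that all members of the cluster use. Beta members consist of a single exon and lack the constant part. CTCF and cohesin bring a chosen promoter to distant enhancers, and DNA methylation keeps unchosen promoters silent. The C-type members are regulated apart from the others and are used more uniformly by neurons.

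All members lie on chromosome 18 (GRCm38), between 36930285 and 37841873. The alpha cluster runs from 36930285 to 37188897, the beta cluster from 37264998 to 37521419, and the gamma cluster from 37661775 to 37841873. In the GENCODE annotation of the same build, which matched 56 of the 57 members and lacked Pcdha10 under that symbol, all matched alpha and gamma members had 4 exons and all beta members had 1. The 3 later exons of the alpha transcripts added up to 2860 nt, against a median of 2481 nt for the variable exon. In the gamma transcripts, the later exons added up to at most 2119 nt and the variable exon had a median of 2607 nt. Reads from these later exons fit every member of the cluster. Of all stretches of 50 nt, a median of 59.5% in alpha transcripts, 44.8% in gamma transcripts and 4.25% in beta transcripts also occurred in another member. Counts of single alpha and gamma members therefore depend on how the authors' pipeline divided shared reads, whereas cluster totals do not depend on how reads were divided within a cluster, and beta members are the best resolved.

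The family as a whole was lower in the edited library, and the clusters differed in how much lower they were. The summed TPM of the beta cluster was 237 in the E14 library and 24.6 in the edited library, 9.63-fold lower. The interval from counting error alone was 9.23 to 10.1. For the alpha cluster, the summed TPM was 34.4 and 4.72, 7.29-fold lower (6.73 to 7.91). The gamma cluster had 155 and 70.6, 2.198-fold lower (2.14 to 2.25). The 3 intervals did not overlap, and the fold difference of the beta cluster was 4.38 times that of the gamma cluster. The intervals, here and below at the 95% level, are exact binomial ones (Clopper-Pearson) for the reads, carried over to the TPM ratio. They cover counting error only, and they compare these libraries rather than the genotypes. In bulk tissue, fewer cells that express a gene and less RNA per cell cannot be told apart.

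Because the clusters were lower to different degrees, the makeup of the family differed between the libraries. Beta members held 55.5% of the summed TPM in the E14 library against 24.6% in the edited library. Gamma members held 36.4% and 70.7%. The alpha cluster was the smallest in both, at 8.07% and 4.73%. The beta cluster was thus the largest in the E14 library and the gamma cluster in the edited library. A TPM of at least 1 was reached by 55 of the 57 members in the E14 library and by 28 in the edited library. Those 28 were 1 alpha, 8 beta and 19 gamma members. The shares of all genes at that level are not given here, so these counts are descriptions only.

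Counted by member, 12 of 14 alpha, 22 of 22 beta and 10 of 21 gamma members had a TPM more than 2-fold lower in the edited library, and no member was more than 2-fold higher. Among all 14713 protein-coding genes with between 22 and 9312 reads in both libraries together, the range of the members, 18.5% were more than 2-fold lower and 21.8% more than 2-fold higher. For 42 of the 57 members (12 alpha, 21 beta and 9 gamma), the counting interval as a whole lay beyond a 2-fold lower CPM (read counts scaled to the same library total), against 11.4% of the same protein-coding genes. In the higher direction, 0 members and 19.7% of those genes passed. The study's methods add a minimum TPM of 10, which either library may reach. Only 11 members reached that level, all of them through the E14 library except Pcdhgc3, which reached it in both, and all 11 were more than 2-fold lower (10 beta members and Pcdhgc3). Of the 11578 genes that reached that level, 18.7% were lower by the same rule and 10.8% higher. Since nearly all of these members passed the level only through the E14 library, nothing is read from this last count.

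**Figure D1:**
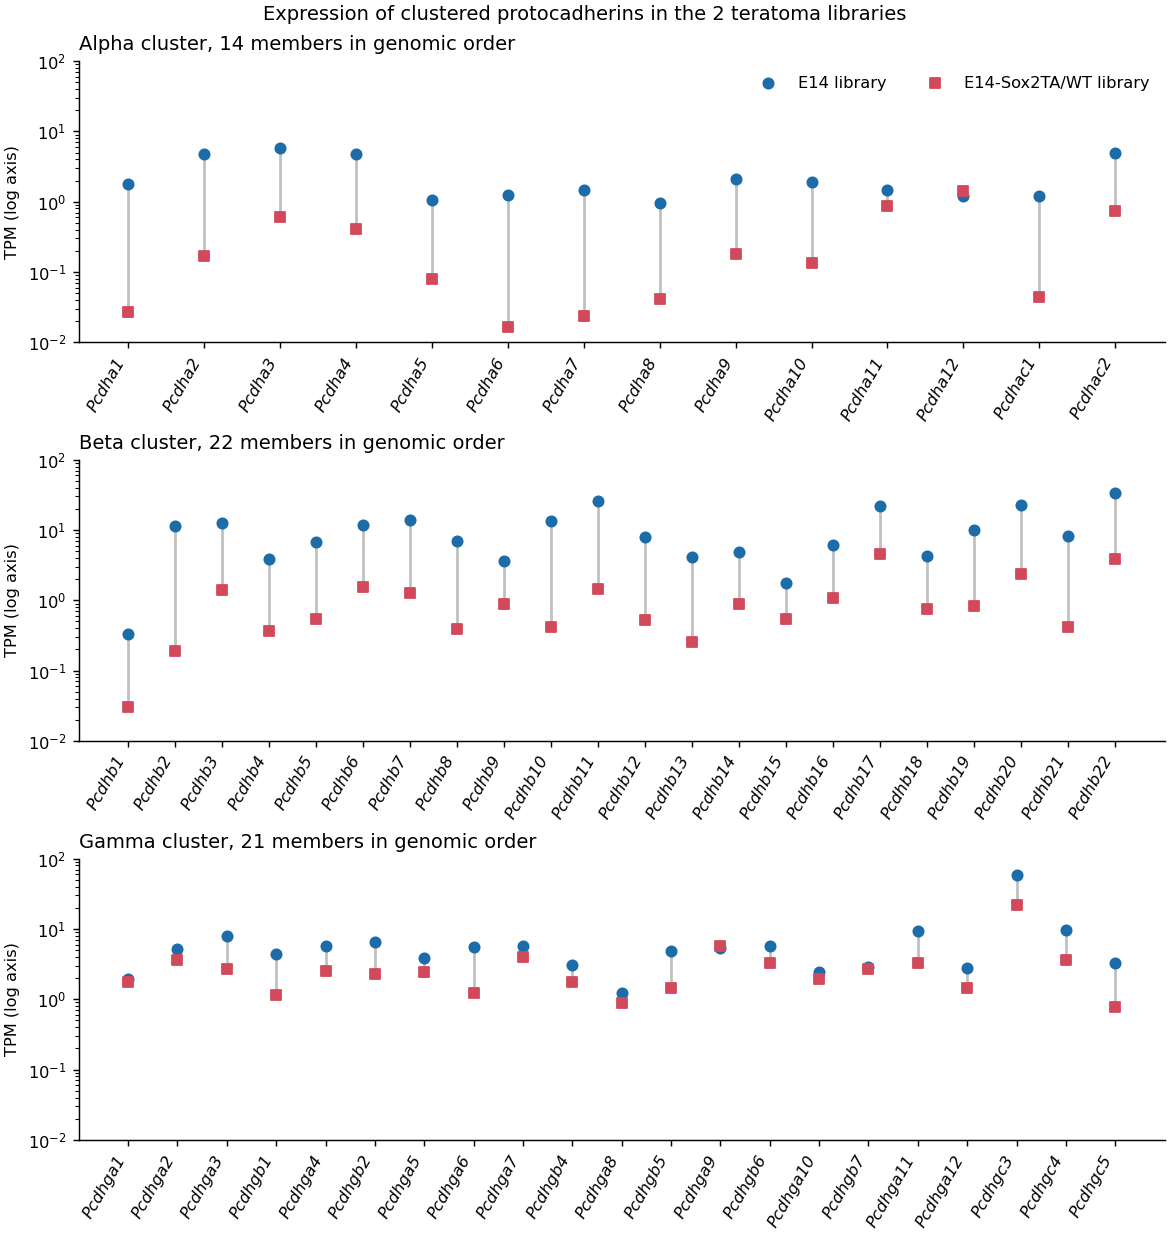
TPM of each clustered protocadherin (log axis) in the E14 library (circles) and the E14-Sox2TA/WT library (squares), with members in genomic order and 1 library per group. All 22 beta members lie lower in the E14-Sox2TA/WT library, while Pcdha12 and Pcdhga9 lie slightly higher.

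The median log2 ratio over all members, with 1 added to each TPM, was -1.31 in the alpha, -2.43 in the beta and -0.67 in the gamma cluster. Without the added 1, the medians were -3.79, -3.43 and -0.95, since many alpha members had a TPM near 1, where the added 1 shrinks a ratio. The protein-coding genes of the same read range, members left out, had a median of -0.032 with 1 added. Those with a transcript length in the range of the members had -0.15 over 7764 genes, and those on chromosome 18 had -0.096 over 337 genes. All of these medians were closer to 0 than those of the 3 clusters.

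Beta members encode transmembrane proteins with cadherin repeats and a short cytoplasmic part, and all 22 were lower. Pcdhb22 had the highest level of the cluster in the E14 library, with a TPM of 33.7 (2491 reads) against 3.91 (323 reads), 8.63-fold lower (7.68 to 9.72). Pcdhb11 had a TPM of 26.2 and 1.46, 17.9-fold lower (15.1 to 21.4). Pcdhb20 stood at 22.8 and 2.37, 9.61-fold lower (8.34 to 11.1). The interval of Pcdhb11 lay above those of Pcdhb22 and Pcdhb20, which overlapped. Pcdhb17 was less reduced, with a TPM of 21.8 and 4.55, 4.80-fold lower (4.30 to 5.36). It was the 4th most expressed beta member in the E14 library and the 1st in the edited library. Pcdhb7 followed the cluster more closely, at 14.1 and 1.25, 11.3-fold lower (9.30 to 13.7).

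The widest gaps in the beta cluster were found in members of middle expression. Pcdhb2 had 764 reads in the E14 library against 15 in the edited library, with a TPM of 11.4 and 0.192, 59.5-fold lower (35.8 to 107). Pcdhb10 had a TPM of 13.4 and 0.420, 31.8-fold lower (22.5 to 46.5). Pcdhb21 stood at 8.09 and 0.418, 19.4-fold lower (13.5 to 28.8). The intervals of Pcdhb2 and Pcdhb10 overlapped, and that of Pcdhb2 lay above those of Pcdhb21 and the 5 most expressed members. The other 14 beta members were between 3.31-fold and 18.1-fold lower, from TPM values between 0.336 and 12.7 in the E14 library to values between 0.0303 and 1.56. The smallest ratio of the cluster was that of Pcdhb15, which had a TPM of 1.79 and 0.541 and is named here after its values were seen. Pcdhb1, also named afterwards, had the fewest reads of all members, with 20 and 2, and its 11.1-fold difference has an interval from 2.69 to 97.8.

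Across the 22 beta members, Spearman's rho between the TPM of the libraries was 0.64, against 0.40 across the 14 alpha and 0.65 across the 21 gamma members. Members of a cluster are not independent samples, so these values are descriptions only. The spread within the beta cluster can also be read from the effective number of members, the number of equally expressed members that would give the same entropy of shares. This was 16.7 in the E14 library and 14.8 in the edited library. The beta cluster thus had a broad makeup in both libraries.

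**Figure D2:**
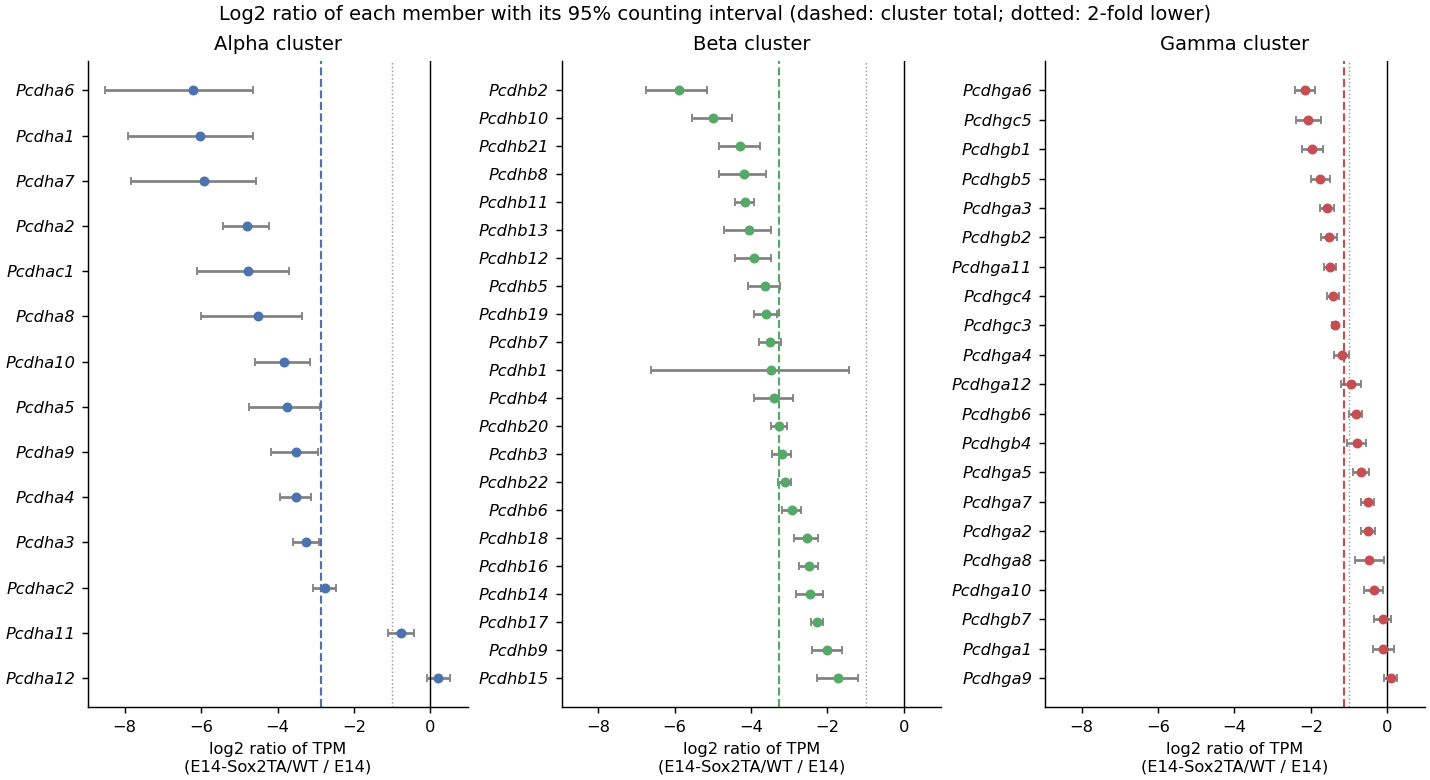
Log2 ratio of TPM (E14-Sox2TA/WT over E14) for each member, ordered within its cluster, with bars for the 95% counting interval, dashed lines for the cluster totals (-2.87, -3.27 and -1.14) and dotted lines at a 2-fold decrease. Beta members spread around their total, whereas Pcdha11 and Pcdha12 stand apart from the other alpha members.

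In the alpha cluster, every member except Pcdha12 was below a TPM of 1 in the edited library. Read counts there ranged from 3 for Pcdha6 to 199 for Pcdha12. Pcdha3 had the highest level in the E14 library, with a TPM of 5.72 against 0.603, 9.49-fold lower (7.59 to 12.0). Pcdha4 stood at 4.72 and 0.413, 11.4-fold lower (8.74 to 15.2). Pcdha2 stood at 4.70 and 0.169, 27.9-fold lower (18.7 to 43.4). These are the numbered members with the highest E14 levels, and all of them were below a TPM of 1 in the other library. The largest ratios rest on very few reads. Pcdha6 had 199 reads against 3, 74.5-fold lower (25.1 to 364), Pcdha1 had 226 against 4, 65.1-fold lower (25.1 to 241), and Pcdha7 had 189 against 4, 61.2-fold lower (23.5 to 227).

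Pcdha12, the last of the numbered alpha members in genomic order, was the exception. Its TPM was 1.21 (154 reads) in the E14 library and 1.40 (199 reads) in the edited library, 1.16-fold higher, with an interval of 0.935 to 1.44 that includes no change. By CPM, the same gene was 1.33-fold higher (1.07 to 1.65). Its neighbour Pcdha11, named after its values were seen, had a TPM of 1.45 and 0.856, 1.69-fold lower (1.34 to 2.14). Among the 12 numbered alpha members, the remaining 10 were all at least 9.49-fold lower. As a result, Pcdha12 held 3.51% of the alpha TPM in the E14 library against 29.7% in the edited library, and Pcdha11 held 4.20% and 18.1%. Pcdha3 led the cluster in the E14 library with 16.6% and Pcdha12 led it in the other. The effective number of alpha members was 11.4 in the E14 library and 7.46 in the edited library. The authors' division of reads on the 3 constant exons among alpha members bears on these shares, and its part in them was not tested.

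The alpha C-type members were low as well. Pcdhac2, which serotonergic axons need to spread through their target regions, had a TPM of 4.98 and 0.734, 6.78-fold lower (5.55 to 8.35). Pcdhac1 stood at 1.19 and 0.0438 (153 and 7 reads), 27.2-fold lower (12.9 to 68.9). Pcdhac2 held similar shares of the alpha cluster in both libraries, at 14.5% and 15.5%. In a list of 7 genes of serotonergic neurons, the transcription factor gene Fev had a TPM of 13.0 and 1.83 and the serotonin transporter gene Slc6a4 had 11.7 and 2.74. Others of that list were not lower, such as Ddc at 33.7 and 57.4 and Slc18a2 at 9.56 and 12.2. Lmx1b stood at 9.83 and 7.41. By the rule with the minimum TPM of 10, which 5 of the 7 genes reached, 3 were lower and 0 higher. The third lower gene was Tph2, the rate-limiting enzyme of serotonin synthesis in the brain, at 10.2 and 3.15. All 3 reached the minimum only through the E14 library, so nothing is read from their count. With no minimum, Maob was higher, at 1.19 and 3.86. Tph2 and Maob are named after their values were seen. The list had a median log2 ratio of -0.37 and a summed TPM of 89.2 and 88.5. Their part in the level of Pcdhac2 was not tested.

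**Figure D3:**
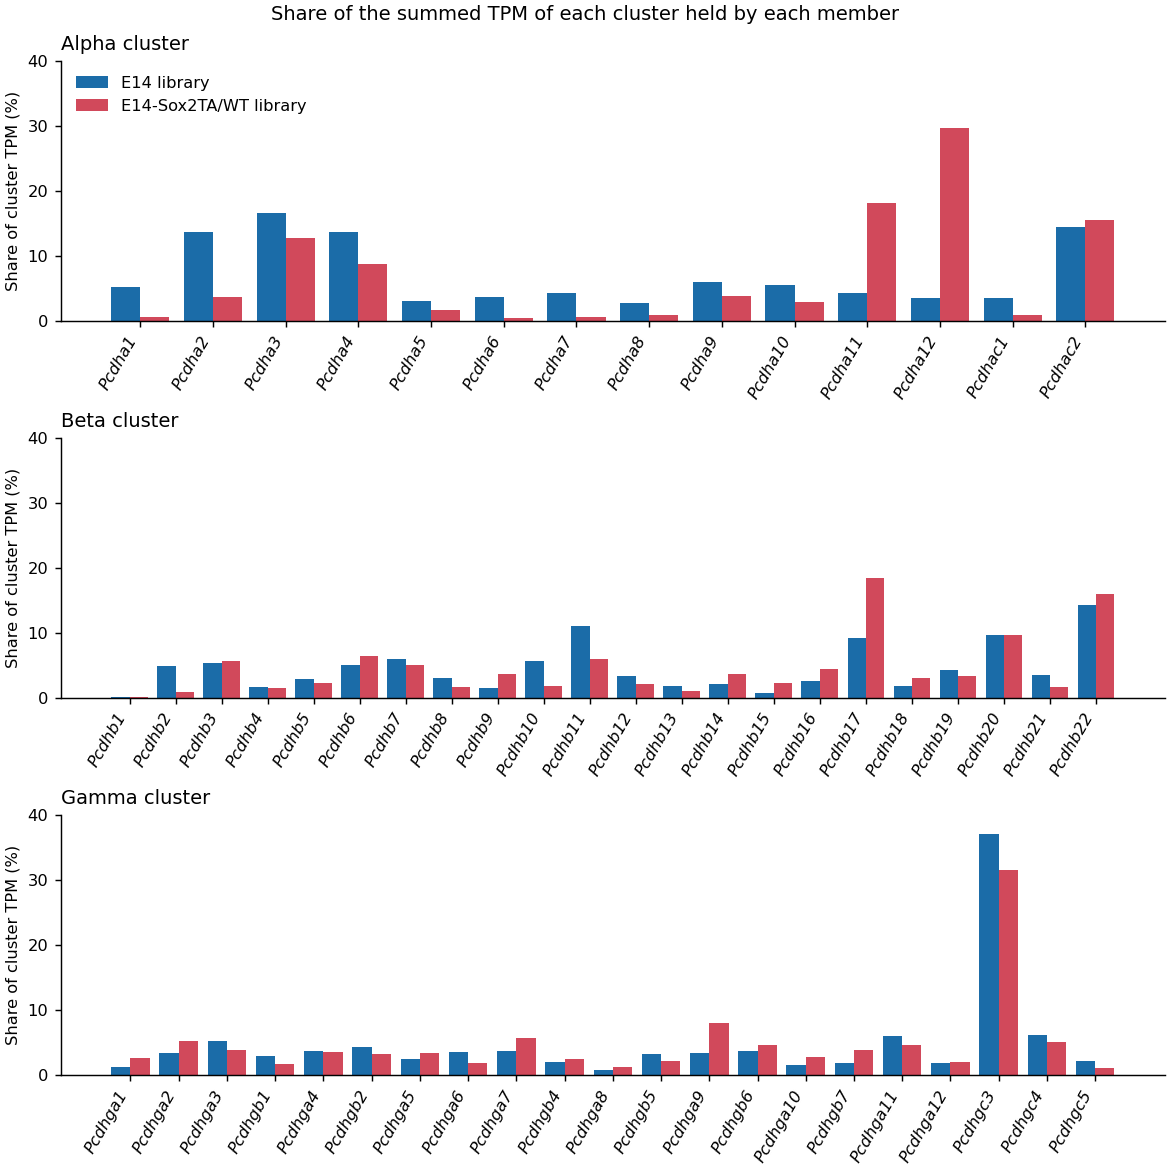
Share of the summed TPM of each cluster (%) held by each member in the E14 library and the E14-Sox2TA/WT library. In the alpha cluster the largest share was that of Pcdha3 in the E14 library (16.6%) and of Pcdha12 in the E14-Sox2TA/WT library (29.7%), and in the gamma cluster Pcdhgc3 held the largest share in both libraries (37.2% and 31.5%).

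The gamma cluster differed least between the libraries. Gamma proteins share one cytoplasmic domain and are needed for the survival of many interneurons. By TPM, 20 of the 21 members were lower to some degree, but with FPKM or CPM this was 18, since Pcdhga1 and Pcdhgb7 then turned slightly higher. Pcdhgc3, a C-type member that promotes dendrite branching and is also found in astrocytes, had the highest level of the whole family in both libraries. It had a TPM of 57.7 (6508 reads) in the E14 library and 22.3 (2804 reads) in the edited library, 2.59-fold lower (2.48 to 2.71). Pcdhgc3 held 37.2% of the gamma TPM in the former and 31.5% in the latter. Without it, the remaining 20 members were together 2.02-fold lower (1.95 to 2.08).

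The other gamma C-type members were lower to a like or larger degree. Pcdhgc4, which is needed for interneuron survival, had a TPM of 9.59 and 3.56, 2.69-fold lower (2.42 to 3.002), and its interval overlapped that of Pcdhgc3. Pcdhgc5 stood at 3.27 and 0.781, 4.19-fold lower (3.35 to 5.28), beyond the intervals of both. The 3 together were 2.65-fold lower (2.55 to 2.76). The 12 members of the A subfamily were together 1.81-fold lower (1.74 to 1.89), from a summed TPM of 57.0 to 31.4. The 6 members of the B subfamily were together 2.198-fold lower (2.07 to 2.34), from 27.7 to 12.6. How reads of the shared exons were divided among the subfamilies, and its part in these values, was not tested.

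Within the A and B subfamilies, members ranged from slightly higher to more than 4-fold lower. Pcdhga6 showed the largest difference, with a TPM of 5.55 and 1.24, 4.46-fold lower (3.74 to 5.35). Pcdhgb1 stood at 4.41 and 1.14, 3.88-fold lower (3.22 to 4.71). Both were lower by more than the cluster total. Pcdhga11 had a TPM of 9.23 and 3.26, 2.83-fold lower (2.52 to 3.18), and Pcdhga3 had 7.98 and 2.69, 2.97-fold lower (2.62 to 3.38). Pcdhga9 was the only gamma member higher by TPM, with 5.30 (602 reads) and 5.63 (714 reads). The ratio was 1.06 (0.952 to 1.19) by TPM and 1.22 (1.10 to 1.36) by CPM. It ranked 10th of the gamma members in the E14 library and 2nd in the edited library, where its TPM was also the 2nd highest of the family. The other 13 A and B members were between 1.08-fold and 3.36-fold lower. The effective number of gamma members was 11.9 and 13.4, so that the makeup was slightly more even in the edited library, unlike in the other clusters.

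Genes around the clusters were compared to see whether the region as a whole was lower. Of 30 other protein-coding genes that lie between the clusters or within 500 kb of them, 2 were lower and 3 higher by the rule with the minimum TPM of 10, and the 25 of them that reached that level had a median log2 ratio of -0.18 with 1 added to each TPM. To set beside these counts, 18.7% of all genes at that minimum were lower and 10.8% higher. The sides differed. The 16 neighbours at that minimum before the alpha cluster had a median of -0.14 (0 lower, 3 higher). The 8 after the gamma cluster had -0.71 (2 lower, 0 higher), beside the median of -0.67 over the gamma members. Taf7, which encodes a subunit of the general transcription factor TFIID and lies between the beta and gamma clusters, had a TPM of 37.5 and 42.6, 1.14-fold higher (1.08 to 1.19). Slc25a2, a mitochondrial carrier gene next to Taf7, had 50 reads against 2, 37.5-fold lower (9.85 to 318). The nearest genes on the outer sides were Zmat2, 130.6 kb before the alpha cluster, with a TPM of 122 and 92.4, and Diaph1, 1.7 kb after the gamma cluster, with 18.3 and 24.04. Diaph1 encodes a formin that builds actin filaments. The lower genes were Rell2, at 14.2 and 0.807, and Fchsd1, at 12.4 and 4.19, which are neighbours beyond Diaph1. The higher genes were Dnd1, at 2.22 and 17.2, Cd14, at 5.17 and 15.4, and Eif4ebp3, at 17.96 and 38.7, all before the alpha cluster. These 5 genes are named after their values were seen. Rell2 and Fchsd1 reached the minimum TPM only through the E14 library, and Dnd1 and Cd14 only through the edited library. Of the 5, Rell2 was past the ratio of the beta total. Within the clusters, Spearman's rho between the start position of a member and its log2 ratio was 0.46 over the 14 alpha, 0.24 over the 22 beta and -0.084 over the 21 gamma members, given as a description since members of a cluster share enhancers and, in alpha and gamma, exons.

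**Figure D4:**
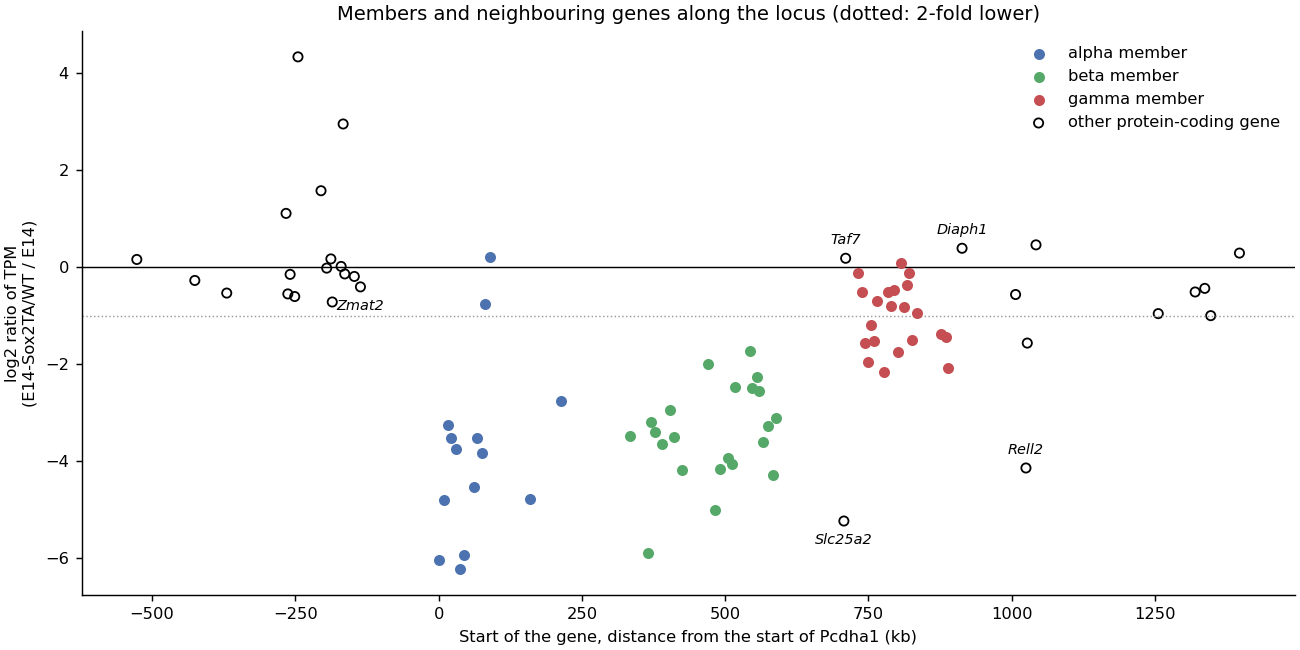
Log2 ratio of TPM (E14-Sox2TA/WT over E14) against the distance of each gene's start from the start of Pcdha1 (kb), for the 57 members (filled) and for other protein-coding genes (open) between the clusters or within 500 kb of them. Slc4a9, listed at 0 in the E14 library, and read-through rows are left out. Taf7 and Diaph1 lie above 0 beside clusters whose members lie mostly below it. Slc25a2, next to Taf7, lies at -5.23 on 50 and 2 reads.

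Markers of neural cells were lower in the edited library as well. All 15 neuronal genes were lower by TPM, 14 of them by the rule with the minimum TPM of 10, with a median log2 ratio of -2.18 and no marker at 0. Tubb3, the neuronal tubulin, had a TPM of 1722 and 170, and Mapt, the microtubule protein tau, had 265.5 and 18.2. Gap43, a growth cone protein, stood at 474 and 106, and Stmn2 at 451 and 121. The summed TPM of these 15 genes was 6.07-fold lower, which lies between the ratio of the gamma cluster and those of the alpha and beta clusters. Of 10 genes of neural progenitors, 6 were lower and 0 higher by the same rule, with a median of -1.49. Fabp7, a fatty acid binding protein of radial glia, had a TPM of 2497 and 708. Msi1 stood at 176 and 65.2, Hes5 at 52.8 and 12.2, and Sox1 at 48.3 and 9.55. Prom1 went the other way, at 58.1 and 73.2. Nes, at 83.8 and 51.8, and Sox2, at 246 and 130, were lower by less than 2-fold. Prom1 and Nes are named after their values were seen. Of 9 astrocyte genes, 5 were lower and 0 higher by that rule, with a median of -1.76. The astrocyte gene Aldoc stood at 147 and 24.3, Ndrg2 at 251.5 and 44.5 and Slc1a3 at 261.5 and 76.5, while Gja1 was at 124 and 166. Most of these markers were lower in the same library as the clusters, and their part in the lower level of the clusters was not tested.

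Markers of other tissues were not lower as a group. In a list of 7 choroid plexus genes, an epithelium of the brain ventricles, 4 reached the minimum TPM of 10, of which 0 were lower and 3 higher. All 4 reached it only through the edited library, so nothing is read from that count. With no minimum, 0 were lower and 5 higher, and the median log2 ratio of the list was 1.52. Ttr, which encodes a carrier of thyroid hormone, had a TPM of 1.32 and 41.1, Folr1 had 7.96 and 49.6, and Clic6 had 8.67 and 26.6. Kcnj13 stood at only 0.401 and 0.438, with an interval of the ratio from 0.654 to 1.84 that includes no change. Kl had 6 and 37 reads. Kcnj13 and Kl are named after their values were seen. In the list of 7 epithelial genes, which all reached the minimum, 0 were lower and 4 higher, with a median of 1.09. The keratin gene Krt8 stood at 118 and 426, Krt18 at 78.8 and 315, and Krt19 at 112 and 241. Of 7 cartilage genes, 3 reached the minimum TPM of 10, of which 1 was lower and 0 higher, and with no minimum 1 was lower and 3 higher. Their median was 0.36. Col2a1, the main cartilage collagen gene, had a TPM of 58.0 and 74.8, Sox9 had 44.1 and 16.9, and Col9a1 had 14.3 and 13.7. The higher genes had few reads. Matn1 was listed at 0 in the E14 library, with 46 reads in the other. Acan, a cartilage proteoglycan gene, had 47 and 207 reads, 3.99-fold higher by TPM (2.90 to 5.60), and Comp, which encodes a cartilage matrix protein, had 11 and 49, 4.66-fold higher (2.39 to 9.93). Acan and Comp are named after their values were seen.

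The nonclustered protocadherins, which are related cell adhesion genes outside the clusters, were lower in the same comparison. All 12 were lower by TPM, with a median log2 ratio of -1.31. The minimum TPM of 10 was reached by 6, of which 3 were lower by the rule and 0 higher. Of all genes at that minimum, 18.7% were lower and 10.8% higher. With no minimum, 8 of the 12 were more than 2-fold lower, against 18.5% of protein-coding genes in the read range of the clustered members. Pcdh1 and Pcdh12 also count among the neighbouring genes above. Pcdh10 had a TPM of 29.03 and 3.35, 8.66-fold lower (7.96 to 9.43). Pcdh17 had 16.9 and 1.61, 10.5-fold lower (9.51 to 11.6). The interval of Pcdh17 overlapped that of the beta total. Both Pcdh10 and Pcdh17 reached the minimum TPM of 10 only through the E14 library. Pcdh8 stood at 42.02 and 11.2, 3.75-fold lower (3.51 to 4.01), and Pcdh18 at 21.4 and 12.0, 1.78-fold lower (1.67 to 1.89). Lower levels were therefore also found outside the clustered genes.

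**Figure D5:**
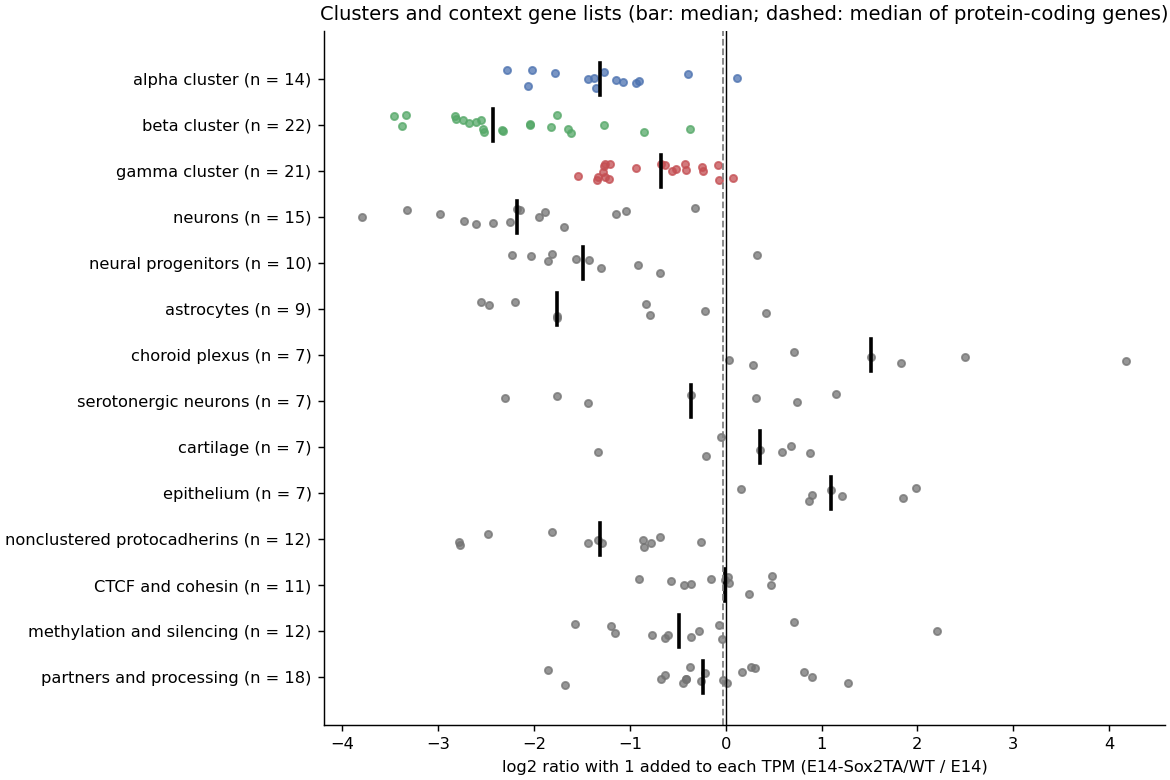
Log2 ratio with 1 added to each TPM (E14-Sox2TA/WT over E14) for the members of each cluster and for the genes of 11 context lists, with black bars for medians and a dashed line for the median of protein-coding genes in the read range of the members (-0.032). The median of the beta cluster is -2.43, that of the neurons list -2.18, and that of the CTCF and cohesin list -0.004. The added 1 shrinks the ratios of genes with a low TPM most, and without it the beta median was -3.43.

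None of the genes listed for the machinery that selects a protocadherin promoter differed by more than 2-fold. Of 11 genes for CTCF, cohesin subunits and cohesin regulators, 0 were lower and 0 higher by the rule with the minimum TPM of 10, and their median log2 ratio was -0.004. Ctcf had a TPM of 77.2 and 59.9, 1.29-fold lower (1.24 to 1.33). Among the cohesin genes, Rad21 had 165 and 231, 1.40-fold higher (1.37 to 1.43), and Smc1a had 135 and 71.5, 1.89-fold lower (1.83 to 1.94). Mau2, a cohesin loading factor gene, stood at 37.8 and 25.1. The counting intervals of Ctcf, Rad21 and Smc1a excluded no change, but all 3 ratios were within 2-fold.

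The listed genes of DNA methylation and of repressive chromatin included lower and higher ones. Of 12 genes, 11 reached the minimum TPM, and 3 were lower and 1 higher by the same rule. Among all genes at that minimum, 18.7% were lower and 10.8% higher. With only 11 genes at that minimum, nothing about the list is read from its counts. The median log2 ratio of the list was -0.48. Dnmt3b, the de novo methyltransferase that sets methylation on protocadherin promoters in the early embryo, had a TPM of 13.6 and 66.1, 4.86-fold higher (4.59 to 5.15). Dnmt1, which maintains methylation, stood at 72.7 and 56.5, and Trim28, a corepressor gene, at 213 and 351. The lower genes were Ehmt2, a histone H3 lysine methyltransferase gene, at 151 and 50.1, with Wiz, its partner, at 56.04 and 24.5, and the methylcytosine oxidase gene Tet3 at 26.5 and 10.96. Wiz and Tet3 are named after their values were seen. Promoter methylation itself was not measured here.

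Proteins that bind or process clustered protocadherins formed a list of 18 genes with a median log2 ratio of -0.23. By the rule with the minimum TPM of 10, which 15 of them reached, 2 were lower and 0 higher. Among all genes at that minimum, 18.7% were lower and 10.8% higher. With no minimum, 2 were lower and 2 higher, the latter being the kinase genes Ptk2b, with a TPM of 2.31 and 7.05, and Ret, with 3.13 and 6.28, both named after their values were seen. Fyn, a kinase linked with the alpha proteins, had a TPM of 94.8 and 29.01, 3.27-fold lower (3.13 to 3.41). Cyfip2, a subunit of the WAVE complex that drives actin branching, had 47.4 and 12.4, 3.82-fold lower (3.64 to 4.01). Another subunit of that complex, Brk1, stood at 227 and 196, and the GTPase gene Rac1, which activates it, at 226 and 222. Marcks, an actin-binding protein gene downstream of gamma protocadherins, had 328 and 274. The ratios of Brk1, Rac1 and Marcks were within 2-fold.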

How the data were processed

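RNA-seq of 1 E14 and 1 E14-Sox2TA/WT teratoma library was used. Per the file headers, the authors deposited read counts per gene, FPKM and TPM on mm10. Their read counts are whole numbers without normalization. FPKM, as deposited, divides by transcript length and by library size, whereas TPM, as deposited, rescales FPKM to a fixed sum. The submitters' processing notes name Trimmomatic, HISAT2 2.1.0 and StringTie 2.1.3b, with no role or settings, and how shared reads were divided and whether strand was used are not given in the sources used here.

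TPM ratios were computed with 95% Clopper-Pearson intervals of the counts, tested on simulated independent counts. That test covered neither reads shared among members nor the carrying over to TPM. A gene was called past a fold change above 2, and, where stated, a minimum TPM of 10 that either library may reach. A gene that reaches this minimum only in the E14 library can be called lower but not higher, and the reverse holds for the edited library. Of all 11578 genes at that minimum, 18.7% were lower and 10.8% higher, the shares to set beside each list count. Medians used log2 after adding 1 to each TPM. A count of 0 allows up to 3 reads. Members and 11 gene lists were chosen with earlier results of these data known. Named were, per cluster, the 5 members with the highest mean TPM, the 3 with the largest fold in each direction among those with at least 20 reads, and all C-type members, and, per list, the 3 most expressed genes and the 2 furthest from a ratio of 1, and the neighbours between and nearest to the clusters. Sequence lengths and exons came from GENCODE M21 and positions from RefSeq, both GRCm38. RefSeq matched all 57 members. Alternatives used FPKM, CPM (counts scaled to the library total), edgeR's TMM, median-of-ratios size factors, other thresholds and other pseudocounts. Python 3.11.15, scipy 1.17.1 and edgeR 4.0.16 were used.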

Additional observations from a re-analysis of the deposited data

How the results depend on the processing

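No paired analysis was possible because each group has 1 library, and leaving out a library was not possible. FPKM ratios lie 0.20 above TPM ratios on the log2 scale for every gene. Under the alternatives tried, 94 values of cluster totals, medians, counts and shares moved by less than the limit set for each (counting error for totals and shares, 1 SD over the members for medians, 1.5 times for counts), and 25 moved by more, none of them in sign. The 94 include counts that stayed at 0 under every setting, such as members past the fold rule in the higher direction. No alpha member reached a TPM of 10 in either library, so the alpha count of 0 could not change with another fold threshold. The limit for medians is wide: with FPKM, where the added 1 weighs more, the medians were -0.73 for alpha, -1.77 for beta and -0.42 for gamma, against -1.31, -2.43 and -0.67. The log2 ratio of the alpha total was -2.67 with FPKM and -2.67 by CPM. That of the beta total was -3.07 with FPKM, -3.03 by CPM, -3.16 with TMM and -3.15 with median-of-ratios size factors. The gamma total was at -0.94, -0.93, -1.06 and -1.06 with the same settings, -1.01 without Pcdhgc3 and -0.94 without the C-type members. With a pseudocount of 0.1, the alpha median was -3.07. Members past the fold rule with the minimum TPM of 10 were 0 alpha, 10 beta and 1 gamma. They became 11, 21 and 10 with a minimum TPM of 1, 12, 22 and 10 with no minimum, and 12, 21 and 9 by the counting interval, settings that test more members, and the gamma count was 0 at a fold above 3. From read counts, Pcdhb22 held 12.8% and 13.96% of the beta cluster. The counts of members lower by any amount, or more than 2-fold lower, under other scalings are alternatives chosen after seeing the data. For single members, 35 alternative values lay within counting error and 15 outside it. Depth limits the lowest members, such as Pcdhb1 with 2 reads and Pcdha6 with 3 in the E14-Sox2TA/WT library.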

Other observations

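The region also holds rows outside the 57 protein-coding members. Pcdhgb8, a gamma B gene that the table lists as a transcribed pseudogene, was counted 274 times in the E14 library and 81 times in the edited library, 3.80-fold lower by TPM (2.96 to 4.93). Gm20162, a pseudogene inside the beta cluster, had 122 and 10 reads, 15.0-fold lower (7.88 to 32.04). Gm37013 is a read-through row that begins at Pcdha4 and ends with the gamma cluster. Its count was 136 and 0, at least 43.99-fold lower by CPM when the count of 0 is set to 3. Gm38666, a second row of that kind, had 11 and 0 reads, at least 3.56-fold lower. Of the remaining rows, the pseudogene Gm8242 had 7 and 15 reads, with a TPM of 0.477 and 0.901, and the lncRNA Gm29994 had 9 and 13 reads, with a TPM of 0.347 and 0.164. How reads were divided between these rows and the members they overlap was not tested.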
